A study of Mus musculus with 6 samples.

Results

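Sertoli cell genes were followed in whole testes of mice lacking Prss37 and of wild-type mice. Prss37 encodes a member of the trypsin-like protease family made in the testis. The 10 Sertoli cell genes were Sox9, Wt1, Gata4, Fshr, Rhox5, Amh, Inha, Inhbb, Dhh and Cldn11, found on the arrays through the accession, symbol or synonym of each probe. They had 15 of the 41174 probes, and 9 of them were among the 18976 genes tested. Amh was too dim to test. Total RNA of 3 Prss37 knockout and 3 wild-type testes, from males of 6 to 8 weeks on a C57BL/6 background, had been hybridised to 6 single-colour (Cy3) Agilent arrays. The allele and the deleted part of Prss37 are not given in the sources used here. Titles and source names of the knockouts give Prss37 but their descriptions give Prss55; the titles were followed. Replicates are mice per the series' design text, and an array stands for 1 of them.

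Sertoli cells are the somatic nurse cells of the seminiferous tubule. SOX9, WT1 and GATA4 are the transcription factors that establish and keep their identity. Follicle-stimulating hormone (FSH) acts on them through its receptor, FSHR, and testosterone acts on them through the androgen receptor, with the homeobox gene Rhox5 as a well known androgen target. They secrete inhibin B, made of the subunits encoded by Inha and Inhbb, which restrains pituitary FSH release, and desert hedgehog (Dhh), which signals to Leydig and peritubular cells. Anti-Müllerian hormone (Amh) is secreted at high levels by fetal and immature Sertoli cells and falls at puberty. Claudin 11 (Cldn11) builds the tight junctions of the blood-testis barrier.

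None of the 9 tested genes passed the test between genotypes, where 2.46% of all genes tested did (limma, adjusted p under 0.05), 1.21% higher and 1.25% lower in knockout. At an adjusted p under 0.1 there was 1 member, Rhox5, against 9.83% of all genes. Rhox5 came nearest, with a 1.20-fold higher signal in knockout testes (adjusted p = 0.060). Signals were 1.14-fold lower for Fshr and 1.09-fold lower for Inha, and 1.08-fold higher for Wt1, none of them past the threshold. Sox9, Gata4, Dhh and Cldn11 differed by less than 0.03 on the log2 scale.

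The probes that carry the 3 largest differences, the second Inha and Inhbb probes, the probe of Amh and the dimmest probe of Sox9 are shown. The first carry the readings described below, and the last 2 were too dim to be tested. Sequences are those of the scanner files, 5′ to 3′, all in lower case. That of Rhox5 is given by the first 30 of its 60 bases and the others whole.
Rhox5, from transcript position 706: tggagtgagatggggagaaagatgcccttt
Fshr, from 1919: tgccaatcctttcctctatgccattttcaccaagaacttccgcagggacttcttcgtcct
Inha, from 303: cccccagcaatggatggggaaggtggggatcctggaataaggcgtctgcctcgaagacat
Inha, from 1208: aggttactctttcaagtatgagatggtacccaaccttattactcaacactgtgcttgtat
Inhbb, from 1820: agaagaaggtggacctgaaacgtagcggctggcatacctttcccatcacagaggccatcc
Amh, from 1479: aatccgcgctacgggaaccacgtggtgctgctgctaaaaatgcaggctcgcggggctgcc
Sox9, from 786: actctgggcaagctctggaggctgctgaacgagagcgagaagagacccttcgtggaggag
Each of the 6 whole sequences reads through without a stop codon in at least 1 of the 3 frames of its strand. G and C made up from 38.3% (Inha, from 1208) to 63.3% (Amh) of the 60 bases of these probes. Positions in the genome are given below on mm9, as in the scanner files, which leave the Rhox5 probe unmapped and do not say whether a probe lies in a coding part or a UTR.

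Rhox5 encodes a homeobox protein of the X-linked Rhox cluster. Its signal, scaled to a common 75th percentile over the arrays, was 14997, 13762 and 14352 in knockout replicates 1 to 3 and 11504, 12158 and 12354 in wild-type replicates 1 to 3. Every knockout array was above every wild-type array. Means were 14370 ± 618 (SD, n = 3) and 12005 ± 445 (SD, n = 3), a log2 difference of 0.26 (SE 0.05, 95% interval 0.13 to 0.39, adjusted p = 0.060 in limma). The difference was 0.28 on the first slide, which held replicates 1 and 2 of each genotype, and 0.22 on the second, which held replicate 3 of each, and its adjusted p was 0.086 with the slide as a block. The call depended on how the variance was modelled: robust fitting along a variance trend gave an adjusted p of 0.023 and weighting the arrays 0.041, settings under which 6.69% and 7.73% of all genes passed.

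Fshr encodes the receptor through which FSH reaches Sertoli cells. Its probe on chromosome 17 (89384673 to 89384732) read 328, 299 and 321 in the 3 knockout testes and 364, 372 and 344 in the 3 wild-type testes. The genotypes did not overlap. Means were 316 ± 15.4 and 360 ± 14.4 (SD, n = 3 each), a log2 difference of -0.19 (SE 0.055, 95% interval -0.32 to -0.05, adjusted p = 0.12). It was -0.23 on the first slide and -0.10 on the second.

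Inha encodes the alpha subunit shared by the inhibins. The brighter of its probes on chromosome 1 (75506675 to 75506734) read 11914, 11225 and 11859 in knockout and 12820, 12685 and 12467 in wild-type testes, again without overlap. The log2 difference was -0.12 (SE 0.04, 95% interval -0.22 to -0.01, adjusted p = 0.17). The second Inha probe (75503955 to 75504014) read 567, 551 and 576 in knockout and 652, 600 and 624 in wild type, also without overlap, with a difference of -0.15 (SE 0.05, adjusted p over probes = 0.15). Both probes thus stood lower in all 3 knockout testes, and neither difference passed.

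Inhbb encodes the beta B subunit, which pairs with the alpha subunit in inhibin B or with itself in activin B. The brighter probe (chromosome 1, 121312083 to 121312142) read 3273, 3093 and 3040 in knockout and 3267, 3538 and 3168 in wild type, and the genotypes overlapped. Its log2 difference was -0.08 (SE 0.06, 95% interval -0.23 to 0.06, adjusted p = 0.44). The dimmer probe (121314417 to 121314476) read 75.3, 55.9 and 72.2 in knockout and 79.5, 83.3 and 89.1 in wild type, without overlap, with a difference of -0.32 (SE 0.12, adjusted p over probes = 0.19). The 2 probes gave the same sign and differed in size, and the mean of both had a difference of -0.20 (adjusted p = 0.18).

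Amh was close to the limit of detection at this age. Its probe (chromosome 10, 80270208 to 80270267) was well above background on 2 of 3 knockout and 2 of 3 wild-type arrays, and so did not enter the test. The signals were 37.2, 38.8 and 40.3 in knockout and 41.7, 39.5 and 26.6 in wild type, with the lowest value in wild-type replicate 3. No fold is given.

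Fshr and Inha stood together across the 6 testes: wild-type replicates 1 and 2 were highest for both, wild-type replicate 3 came next, and knockout replicate 2 was lowest for both. Pearson's r of their log2 signals was 0.98 over the 6 arrays and 0.90 after each genotype's mean was removed, which leaves fewer free points. Over the 6 arrays this was the highest of the 36 pairs of tested members, whose r ran down to -0.78 with a median of -0.06; within genotypes Cldn11 and Inha had a higher one, 0.94. The pair was singled out after its values were seen. The points share arrays and scaling, and the r is given as a description of 6 arrays.

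**Figure D1:**
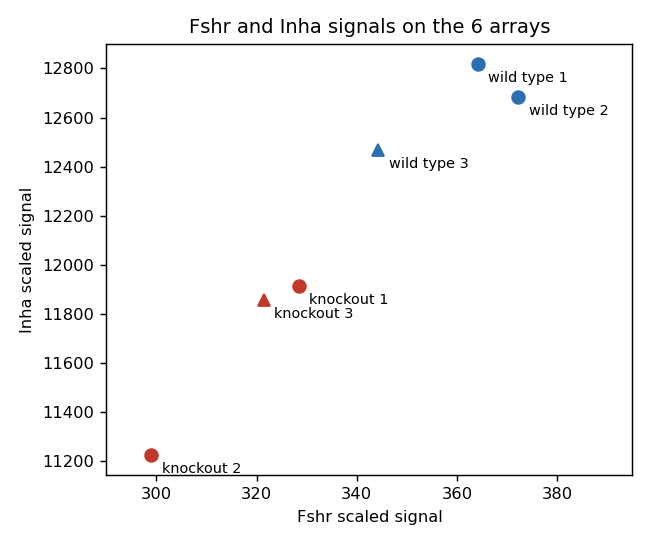
Scaled signal of Inha (vertical axis) against that of Fshr (horizontal axis) on each of the 6 arrays, with axes that do not start at 0. Red marks knockout and blue wild type, circles the first slide and triangles the second; knockout replicate 2 lies lowest in both (299 and 11225) and the 3 wild-type arrays lie above all knockout arrays in both.

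Among the transcription factors, Sox9, which drives Sertoli cell fate, had nearly the same signal in both genotypes. The brightest of its 3 probes (chromosome 11, 112647008 to 112647067) read 1007, 997 and 1017 in knockout and 992, 1016 and 967 in wild type. The log2 difference was 0.02 (SE 0.04, adjusted p = 0.77), with a 95% interval from 0.951-fold to 1.08-fold of wild type. A second probe, printed 10 times per array (112648809 to 112648868), gave 0.02 (SE 0.07, adjusted p over probes = 0.90). Its spots on 1 array had an SD of 0.02 to 0.07 on the log2 scale. The third Sox9 probe, whose alignment spans 112644310 to 112645162, was well above background on 1 of 3 arrays of each genotype and was not tested.

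Wt1, which keeps Sertoli cells from losing their identity, was measured by 10 spots per array of 1 probe (chromosome 2, 105013428 to 105013487). The signals were 2977, 2951 and 3030 in knockout and 2667, 2861 and 2732 in wild type, and every knockout array was above every wild-type array. The log2 difference was 0.12 (SE 0.04, 95% interval 0.01 to 0.22, adjusted p = 0.17), with 0.10 on the first slide and 0.15 on the second. The spots of this probe on 1 array had an SD of 0.03 to 0.06 on the log2 scale.

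Gata4 encodes a zinc finger factor that acts on many Sertoli and Leydig cell promoters. Its tested probe (chromosome 14, aligned in part, 63817752 to 63817773) read 98.1, 110 and 127 in knockout and 104, 101 and 128 in wild type. The highest value of each genotype was that of replicate 3, on the second slide. The log2 difference was 0.0052 (SE 0.13, adjusted p = 0.985), and the 95% interval, from -0.31 to 0.32, was the widest of the 9 genes. A second Gata4 probe (63818147 to 63818206) was well above background in 13 of 60 spots and was not tested.

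Dhh and Cldn11, the remaining genes, also differed little between the genotypes. The Dhh probe (chromosome 15, 98723465 to 98723524) read 4619, 4618 and 4437 in knockout and 4785, 4582 and 4529 in wild type, a log2 difference of -0.02 (SE 0.04, adjusted p = 0.78). The Cldn11 probe (chromosome 3, 31062922 to 31062981) read 10321, 10045 and 10207 in knockout and 10158, 10087 and 10003 in wild type, a difference of 0.02 (SE 0.04, adjusted p = 0.83). The 95% intervals reached from 0.915-fold to 1.06-fold of wild type for Dhh and from 0.951-fold to 1.07-fold for Cldn11, so larger changes of transcript per total RNA lie outside them. In whole testis, fewer cells of a type and less RNA per cell cannot be told apart.

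**Figure D2:**
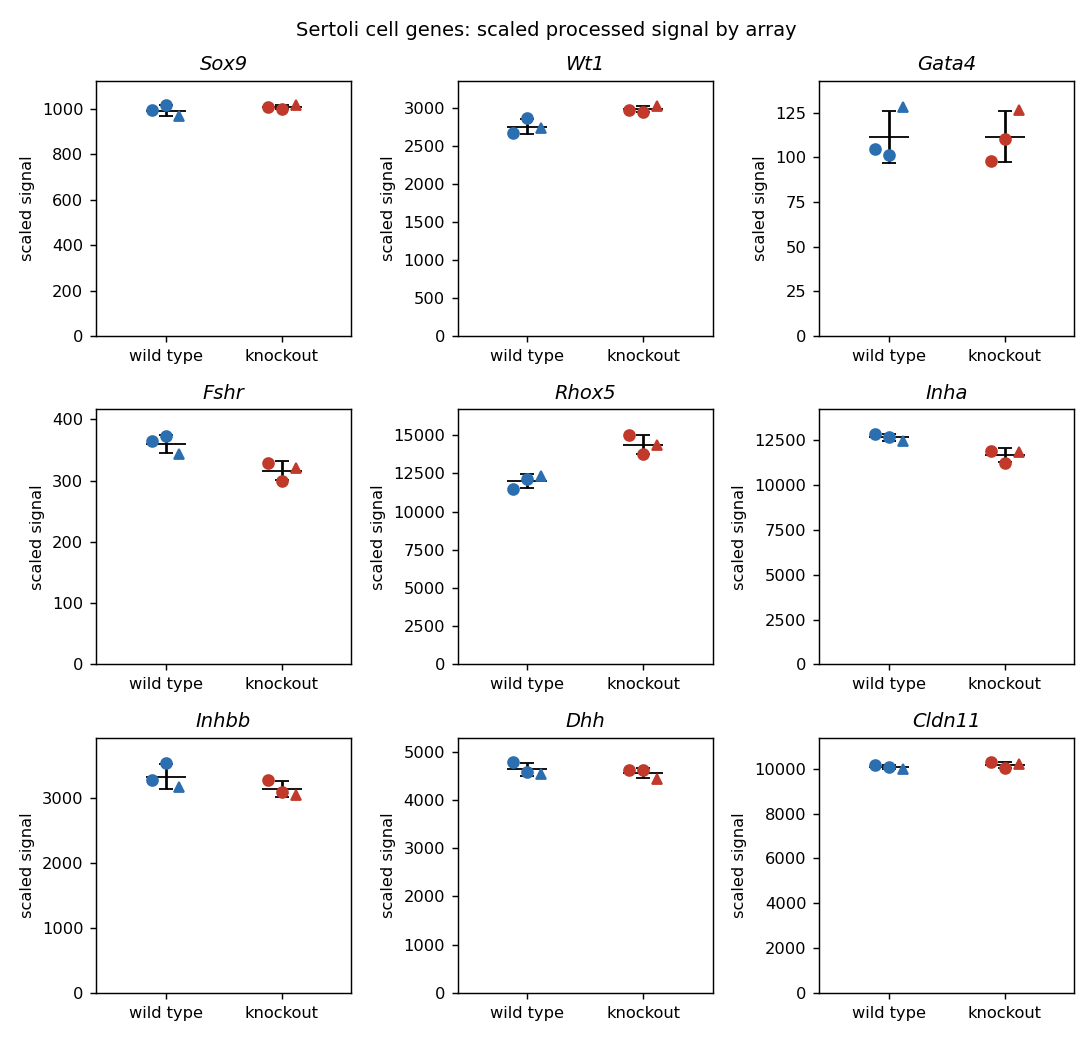
Scaled processed signal of the 9 tested genes (vertical axes from 0, 1 probe per gene) in wild-type (blue) and knockout (red) testes. Points are arrays, circles on the first slide and triangles on the second, with the mean and SD of 3 arrays in black. Rhox5 and Wt1 lie higher and Fshr and Inha lower in all 3 knockout testes, and the genotypes overlap in the other 5 genes.

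Taken over the 9 tested genes, 5 differences were above 0 and 4 below, with a median of 0.0052 against -0.0024 over all genes tested. In 4 of 9 the genotypes did not overlap, where 31.6% of all genes tested did not, and the same 4 had an unadjusted p under 0.05, where 23.9% of all genes did. The median size of the difference was 0.08, against 0.09 over all genes. Between testes of one genotype the members had a median SD of 0.04 on the log2 scale, against 0.08 over all genes. The genes were not matched in brightness, and the SD of the members ran from 0.02 for Cldn11 to 0.18 for the dimmest, Gata4. The mean log2 level of the 9 genes, relative to its mean over the arrays, ran from -0.03 to 0.02 in knockout and from -0.01 to 0.01 in wild-type testes, which overlap. Of 9940 other named genes that ranged by at least 0.2 over the arrays, the profile most like this mean was that of Cyp7b1 (r = 0.97 over 6 arrays), followed by Tatdn2 (0.96) and Cldn9 (0.95). Being the highest of 9940 values over 6 arrays, against a mean that moved little, these r describe the arrays and no link between the genes was tested.

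**Figure D3:**
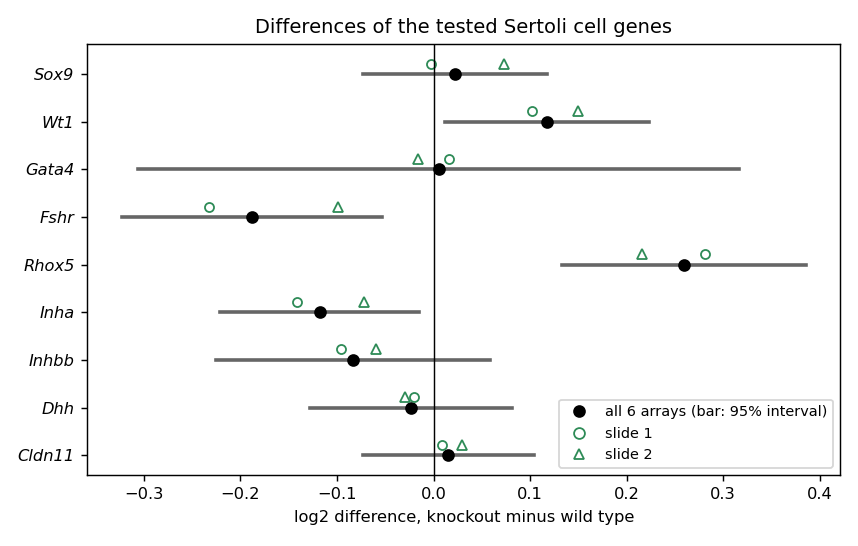
Log2 difference, knockout minus wild type, of the 9 tested genes. Black points with bars are the values over all 6 arrays with their 95% intervals. Open green circles are the first slide and open triangles the second. The intervals of Rhox5, Wt1, Fshr and Inha leave out 0 before adjustment over all genes. Both slides have the same sign in these 4 genes, which follows from their genotypes not overlapping, and also in Inhbb, Dhh and Cldn11.

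Other genes known from Sertoli cells were also split. Of 29 listed, 27 were tested, 14 were above 0 and 13 below, and 1 rose and 1 fell. Gatm, the first enzyme of creatine synthesis, read 3645, 3767 and 3782 in knockout and 3105, 3162 and 2907 in wild type, a rise of 0.29 (SE 0.05, adjusted p = 0.046). Tubb3, a beta tubulin gene under androgen control in these cells, read 2389, 2510 and 2546 in knockout and 3099, 3031 and 3073 in wild type, and it fell by 0.31 (SE 0.04, adjusted p = 0.041). The transporter gene Abcb1a had the highest value of the list, 0.50 (SE 0.24, adjusted p = 0.26). It was dim, at 80.7, 64.4 and 55.0 in knockout and 47.2, 61.2 and 34.6 in wild type, and had 0.25 with normexp. The mean level of this list overlapped between the genotypes, from -0.005 to 0.02 in knockout and from -0.03 to 0.03 in wild type.

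The genes of FSH and androgen signalling, Tubb3 included, had 0 higher and 1 lower of 19 tested, with 13 below 0 and a median of -0.08. The highest value, 0.12, was that of the cAMP-responsive regulator gene Crem (adjusted p = 0.16), and the lowest, -0.31, that of the phosphodiesterase gene Pde4d (adjusted p = 0.36). The mean level of this list ran from -0.08 to -0.02 in knockout and from 0.01 to 0.10 in wild-type testes.

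In the activin, inhibin and AMH pathway, 0 of 18 tested genes rose and 1 fell, with 10 below 0 and a median of -0.02. Acvr1, a type I receptor of activins and bone morphogenetic proteins, read 419, 425 and 424 in knockout and 547, 508 and 560 in wild type. It fell by 0.35 (SE 0.05, adjusted p = 0.041). The mediator gene Smad1 had the lowest value, -0.36 (adjusted p = 0.098), and Tgfbr3, which encodes the inhibin co-receptor betaglycan, the highest, 0.46 (SE 0.25, adjusted p = 0.33). Tgfbr3 was dim, with mean signals of 60.4 in knockout and 43.9 in wild type, and the genotypes overlapped. It was well above background on all knockout arrays but on only 2 of 3 wild-type arrays, so it entered the test through knockout alone. With normexp its difference was 0.26.

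Of the hedgehog genes that act with Dhh, 12 of 17 were tested and none passed, 9 being below 0 with a median of -0.07. The co-receptor genes Cdon and Gas1 had -0.50 (adjusted p = 0.11) and -0.51 (SE 0.27, adjusted p = 0.31). Gas1 read 159 in knockout replicate 1, above the wild-type arrays, and 82.4 and 78.6 in the others. Without that array its difference was -0.83 and passed (adjusted p = 0.018), and without knockout replicate 3 it was -0.33 (0.59). Weighting the arrays called Cdon (-0.61, adjusted p = 0.048), and robust fitting along a variance trend called 1 gene of the list. The target gene Gli1 was too dim to test, as were Gli2, Hhip, Shh and Ihh. The mean level of the list ran from -0.11 to 0.03 in knockout and from 0.05 to 0.06 in wild type.

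Of 25 tested junction genes of the blood-testis barrier, 1 rose and none fell, with 14 above 0 and a median of 0.04. The N-cadherin gene Cdh2 had -0.34 (adjusted p = 0.064) and Marveld3 0.42 (adjusted p = 0.14). The adjusted p of Marveld3 was 0.046 without wild-type replicate 2 and 0.19 to 0.34 with any other array left out.

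Among 19 tested partners and opponents of SOX9, WT1 and GATA4 in gonad fate, 1 rose and none fell, with a median of 0.01. Ptgds, whose product makes prostaglandin D2, a signal that sustains Sox9, read 49070, 52789 and 50644 in knockout and 39403, 32338 and 37707 in wild type, a rise of 0.48 (SE 0.08, adjusted p = 0.047). The Wnt agonist gene Rspo1 had the lowest value, -0.63 (SE 0.31, adjusted p = 0.27). Foxl2 and Wnt4, which act on the ovarian side, and Ptger4 were too dim to test.

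The calls of Gatm, Tubb3, Acvr1 and Ptgds depended on the arrays used. Without wild-type replicate 2 all 4 passed (adjusted p from 0.031 to 0.047), in a run with 442 higher and 337 lower calls over all genes. With an array left out the difference of Gatm ran from 0.25 to 0.31 and that of Tubb3 from -0.33 to -0.28. That of Acvr1 ran from -0.39 to -0.32 and that of Ptgds from 0.40 to 0.54, so the 4 genes kept their signs. With the slide as a block their adjusted p ran from 0.062 to 0.072. Without knockout replicate 1, 2 or 3 it ran from 0.11 to 0.13, from 0.15 to 0.17 and from 0.14 to 0.17, and without wild-type replicate 1 from 0.11 to 0.13. In these runs at most 12 higher and 37 lower calls were left over all genes, against 230 and 237 with every array. Without wild-type replicate 3 the adjusted p was 0.052 for Acvr1, 0.054 for Tubb3, 0.057 for Gatm and 0.066 for Ptgds. All 4 were also lost with dim probes kept (0.127 to 0.130) and on the first slide alone (0.15 to 0.18). Gatm was lost with normexp (0.081), with quantile normalization (0.051) and with probes averaged (0.0501), Acvr1 with normexp (0.082), and Ptgds with median centring (0.054) and with probes averaged (0.052). Gatm and Ptgds had no other tested probe, so averaging probes left their own differences unchanged, at 0.29 and 0.48.

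Markers of the other cells of the testis were measured beside these genes. None of the tested Leydig (11), peritubular (10), macrophage (12), spermatogonial (9) and spermatid markers (12) passed. Macrophage markers were above 0 in 10 of 12, with a median of 0.20. In 5 of 12 the genotypes did not overlap, where 31.6% of all genes tested did not. The mean level of these markers ran from 0.07 to 0.13 in knockout and from -0.14 to -0.06 in wild-type testes. Cd163 had 0.36 (adjusted p = 0.072), Adgre1 0.41 (adjusted p = 0.18) and Csf1r 0.16 (adjusted p = 0.15). The lowest of the list was Cd14, at -0.08 (adjusted p = 0.77). Cd163 was dim, with mean signals of 87.5 in knockout and 68.1 in wild type, and had 0.22 with normexp. Spermatogonial markers had a mean level from -0.09 to -0.01 in knockout and from 0.04 to 0.05 in wild type. Of the 9 tested, 5 were above 0 and 4 below, with a median of 0.0079 and Sohlh2 highest at 0.13 (adjusted p = 0.36). Stra8 had -0.42 (adjusted p = 0.058, and 0.029 with normexp) and Uchl1 -0.19 (adjusted p = 0.11). Without wild-type replicate 2 both passed, at 0.046 and 0.049, in a run with 442 higher and 337 lower calls among 19038 genes. With any other array left out the adjusted p ran from 0.079 to 0.18 for Stra8 and from 0.15 to 0.28 for Uchl1. The part of these cell types in the differences of Rhox5, Fshr, Inha and Wt1 was not tested.

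Leydig markers, whose cells make the testosterone that acts on Rhox5, had a median of -0.04 and overlapped between genotypes, from -0.01 to 0.03 in knockout and from -0.17 to 0.08 in wild type. The brightest Cyp11a1 probe had -0.25 (adjusted p = 0.21) and the mean of its probes -0.83 (adjusted p = 0.0503). Nr5a1 had -0.12 (adjusted p = 0.27) and Hsd17b3, which makes testosterone, 0.34 (adjusted p = 0.28). Peritubular markers overlapped too, with a median of -0.03 and Acta2 at -0.17 (adjusted p = 0.13). Spermatid markers were above 0 in 10 of 12, with a median of 0.09 and Odf1 at 0.29 (adjusted p = 0.13). Of 8 ovary markers, Foxl2, Bmp15 and Zp2 were too dim to test. All 5 tested were below 0 and none passed, with Cyp19a1 at -0.26 (adjusted p = 0.092) and Figla at -0.44 (adjusted p = 0.097). Figla read only 126 to 214 and Nobox 35.9 to 57.1. With normexp Cyp19a1 had -0.20, Figla -0.31 and Nobox 0.03.

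**Figure D4:**
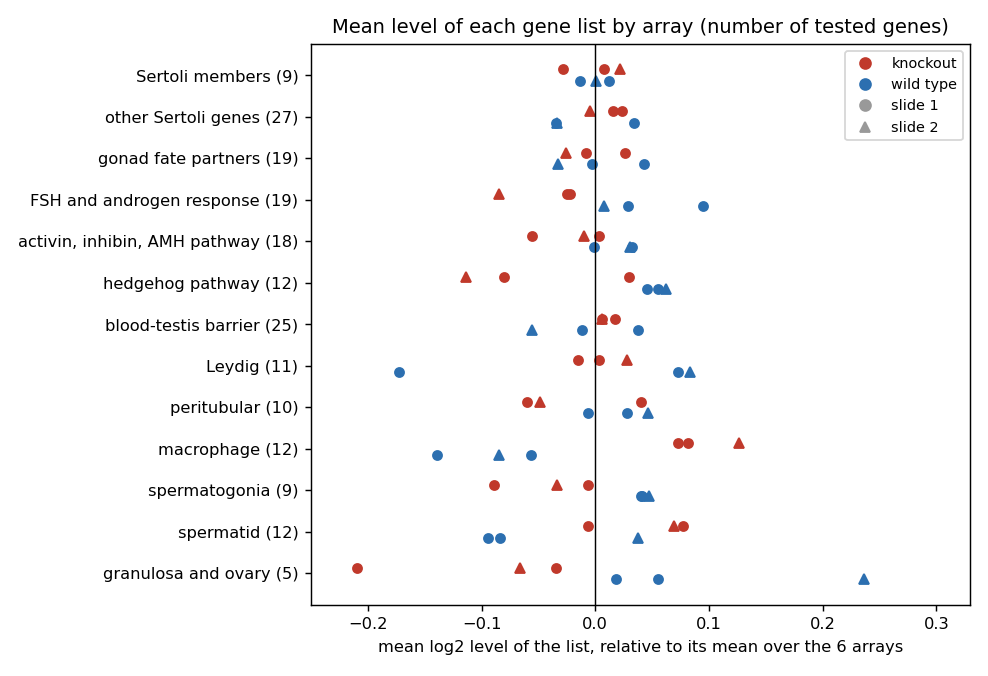
Mean log2 level of the tested genes of each list on each array, relative to the list's mean over the 6 arrays (horizontal axis), with the number of genes in brackets. Red marks knockout and blue wild type, circles the first slide and triangles the second. The 9 Sertoli members lie between -0.03 and 0.02 with the genotypes mixed. The macrophage list lies between 0.07 and 0.13 in knockout and between -0.14 and -0.06 in wild type. The genotypes are also apart, lower in knockout, in the FSH and androgen, hedgehog, spermatogonia and ovary lists. In the spermatogonia list 5 of 9 genes had a difference above 0, with a median of 0.0079. Of single genes tested, 31.6% do not overlap.

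The arrays were alike in quality, with 69.2% to 71.4% of 43379 spots well above background, 0 saturated and 75th percentiles of the signal from 1550 to 1707. The probe of the targeted gene, Prss37, read 67592 to 73824 in knockout and 107860 to 124390 in wild type, and it fell by 0.71 (SE 0.07, adjusted p = 0.024). With an array left out the difference ran from -0.76 to -0.66, and the adjusted p was 0.072, 0.12 and 0.13 without knockout replicates 1, 2 and 3, 0.097 when wild-type replicate 1 was dropped, and 0.030 when either of the other wild-type arrays was. It was 0.093 with dim probes kept and 0.12 on the first slide alone. The probe's place relative to the deletion is not known, so this is no check of genotype.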

How the data were processed

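The authors deposited spot intensity values, 1 scanner file for each array, from which background had been removed in the processed signal. The software was Agilent's Feature Extraction: the file headers give version 10.7.3.1, and 10.7 stands in the submitters' processing notes. A deposited table of log2 values, whose making is not stated, had a median of 7.72 in each column, correlated with the log2 processed signals at r from 0.99988 to 0.99998 and was used as an alternative. Flags for outliers and background were read as the file headers name them.

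Control spots and outlier-flagged spots (86 to 159 per array) were left out. Log2 processed signals minus the array's 75th percentile were averaged over spots of a probe. Printed signals are these values put back on the mean 75th percentile. A probe was tested when well above background on every array of at least 1 genotype, on an array with several spots in over 50% of them, with at least 2 values per genotype (28306 probes). For each gene its brightest probe was taken. Probes were named through unversioned accessions (27668), symbols (5589) or synonyms (471) in a RefSeq table of GRCm38.p6, and 7446 kept the file's name. A level is not compared between probes.

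The genotypes were compared with limma 3.58.1 in R 4.3.3, with no block, and p-values were adjusted over every tested gene (Benjamini-Hochberg). Slide and scan split the arrays alike. Precision is limited by the number of arrays. The members, the 12 other gene lists and the rule for named genes (all members; up to 4 called genes of a list or the 2 of smallest p, with its lowest and highest; the 3 profiles most like the members' mean) were chosen with earlier results of these data known. Alternatives changed the background (normexp, offset 50), the scaling (quantile, median, the deposited table), the dim-probe filter, the flagged spots, the probe standing for a gene, the variance model (trend with robust fitting, array weights), the block (replicate number, slide), the arrays used (leaving out 1 at a time), the threshold (0.1) and, chosen after seeing the data, the first slide alone. The fit was tested on simulated data. Values of 2 listed genes are not reported here.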

Additional observations from a re-analysis of the deposited data

How the results depend on the processing

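The number of members called was 1, Rhox5, with a variance trend and robust fitting (log2 difference 0.26, adjusted p = 0.023), with array weights (0.26, 0.041) and at a threshold of 0.1, and 0 in every other alternative run, each left-out array included. The median of the members, 0.0052, ran from -0.031 to 0.012 with an array left out, lowest without wild-type replicate 2, and was -0.011 on the first slide alone. Differences near 0 changed sign: Dhh was 0.00064 with normexp and ran from -0.039 to 0.00052 with an array left out, Gata4 ran from -0.090 to 0.11, and Sox9 was -0.0029 on the first slide alone. With an array left out the adjusted p of Rhox5 ran from 0.071 to 0.19, of Fshr from 0.097 to 0.30, of Inha from 0.17 to 0.41 and of Wt1 from 0.11 to 0.40. With normexp the differences of Rhox5 and Fshr were 0.21 (adjusted p = 0.11) and -0.13 (0.26). The cause was not tested.

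Deviations of same-numbered arrays from their genotype's mean correlated at -0.03, -0.03 and 0.16 for replicates 1, 2 and 3. Of the knockout arrays 3 alone correlated best with its own number. These 2 arrays were also the only ones on the second slide, so the check cannot say whether the numbers pair the samples. With the replicate block no member was called, and the adjusted p of Rhox5 was 0.16; those of Gatm, Tubb3, Acvr1 and Ptgds ran from 0.13 to 0.14 and that of Prss37 was 0.13, so none of these was called. Over all genes, 230 higher and 237 lower calls became 2 and 6 when dim probes were kept, 125 and 150 when probes of a gene were averaged, 691 and 579 under robust fitting along a variance trend, 805 and 662 with array weights, 0 and 2 with the replicate block, 30 and 49 with the slide block, 6 and 21 on the first slide alone, and 0 to 442 and 2 to 337 with an array left out. Amh, the second Gata4 probe and the third Sox9 probe were limited by signal over background.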
